A study of Mus musculus with 8 samples.

Results

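This report describes 9 genes that mark migrating neuroblasts (type A cells), namely *Dcx*, *Cd24a*, *Sox4*, *Sox11*, *Nrep*, *Igfbpl1*, *Tubb3*, *Dlx6os1* and *Prokr2*, out of 54307 genes in the deposited table. The list was set by name as markers of this cell type, with no cutoff on a measured value, and all 9 were measured and passed the filter on low counts. Bulk RNA-seq was made from polyA-selected RNA of the microdissected periventricular area, which contains the ventricular-subventricular zone (V-SVZ), in mice 8 weeks of age on the 129-Elite background. The 4 *Lrig1* KO mice (2 female and 2 male) were homozygous for CreERT2 placed in the endogenous *Lrig1* locus, a constitutive knockout, and the 4 WT mice (3 female and 1 male) carried the wild-type allele. Each mouse gave 1 library from 1 hemisphere, so the spread between libraries is a spread between animals. The mice are called WT 1 to WT 4 and KO 1 to KO 4 after their labels, and the male mice were WT 2, KO 1 and KO 3.

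Neuroblasts are the young neurons of the adult V-SVZ. They are the offspring of the type C progenitors that lie between them and the neural stem cells, and they travel as chains of cells through the rostral migratory stream before they settle as interneurons in the olfactory bulb. The 9 genes mark this stage in different ways: some encode parts of the cytoskeleton of a moving cell, some encode proteins of the cell surface or secreted proteins, and some encode regulators of transcription. They are not expressed by neuroblasts alone. For example, mature neurons also express *Tubb3* and ependymal cells also express *Cd24a*. Which cells the reads of any of the 9 genes came from was not tested. In whole tissue, fewer cells of a type and less RNA per cell cannot be told apart.

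The libraries held 47887437 to 74482334 estimated reads, and a marker gene held between 172 (*Prokr2* in WT 2) and 25780 (*Tubb3* in KO 3) of them. *Lrig1*, the targeted gene, had 33.7 ± 14.2 CPM (the reads of a gene relative to the size of its library, scaled by TMM) in WT and 2.42 ± 1.40 in KO (mean ± SD, n = 4 each), and every KO mouse lay below every WT mouse. Its log2 fold change was -3.80 (SE 0.52) and its adjusted p was 0.286 in edgeR, so the targeted gene did not pass the threshold of 0.1 in this test. Libraries differed in their neurons from other regions. The summed CPM of 8 genes of cortical excitatory neurons was 3521 in WT 2 and 1726 in KO 3, against 486 to 1255 in the other 6 mice, and that of 8 genes of mature neurons was also highest in WT 2 (9630) and KO 3 (8119). The fold changes of the markers were also computed without these 2 mice.

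The level of each marker per length differed widely between genes. Summed over transcripts, *Tubb3* had the highest mean level with 279 TPM (the transcripts of a gene relative to all transcripts of the library, which allows for length), followed by *Nrep* with 61.2 TPM, *Cd24a* with 21.7 TPM, *Sox4* with 17.4 TPM and *Dlx6os1* with 10.3 TPM. The lowest mean levels were 5.72 TPM for *Sox11*, 5.03 TPM for *Dcx*, 4.14 TPM for *Igfbpl1* and 1.70 TPM for *Prokr2*. In 5 of 8 neighbouring pairs of this order the gene placed higher had the higher TPM in every mouse, with no overlap between the ranges of the 2 genes. The ranges of *Cd24a* and *Sox4* overlapped, as did those of *Sox11* and *Dcx* and those of *Dcx* and *Igfbpl1*, so the order within these pairs is not fixed by the data. *Dcx*, the gene most used to mark neuroblasts, thus had a level per length far below that of *Tubb3*.

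**Figure D1:**
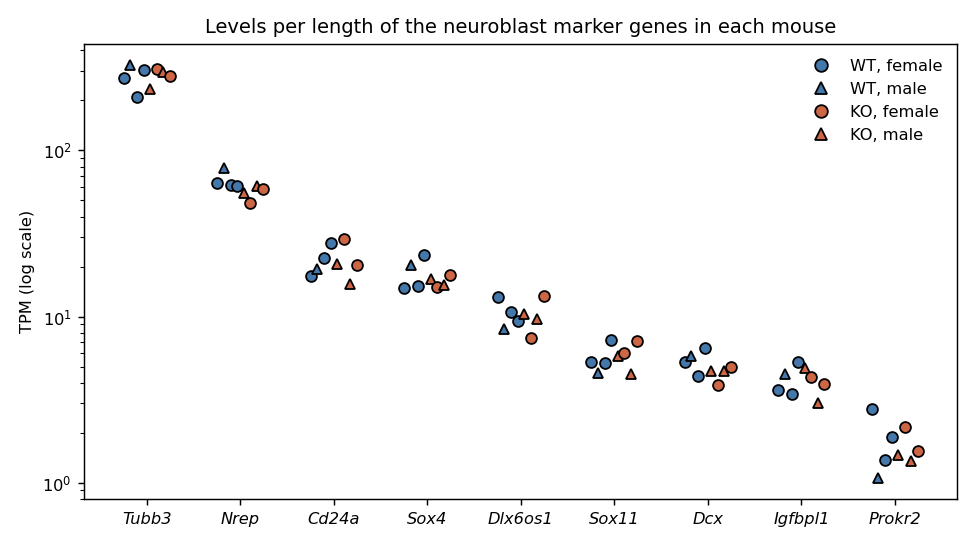
TPM of each marker gene (log axis) in each of 8 mice, with WT in blue, KO in orange, females as circles and males as triangles, and genes in the order of their mean level. *Tubb3* lies at 209 TPM or more in every mouse and *Prokr2* at 2.79 TPM or less, and WT and KO mice overlap in all 9 genes.

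None of the 9 markers changed between KO and WT at an adjusted p under 0.1 (edgeR's quasi-likelihood test, adjusted by the Benjamini-Hochberg method), beside 0.00566% of the 17669 genes tested, or 1 gene (*Gm43079*, not *Lrig1*). Nor did any of them reach an unadjusted p under 0.05, which 1.88% of the genes tested did, and the adjusted p of each marker was 1.0 in edgeR. In none of the 9 did every KO mouse lie on one side of every WT mouse, beside 1.53% of the genes tested. The log2 fold change (KO minus WT) was above 0 in 5 markers and below 0 in 4, with a median of 0.03, and over all genes tested 49.7% were above 0 and the median was -0.000942. In 8 of the 9 the log2 fold change was under 0.15 in size, as it was in 67.4% of the genes tested. The summed CPM of the 9 genes was 596 to 609 in WT and 574 to 627 in KO. *Tubb3*, which mature neurons also express, had means of 331 CPM in WT and 347 CPM in KO, so the sum is mostly *Tubb3*. These values do not show that the levels are equal, and the 95% interval given with each gene states which changes the data leave possible.

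**Figure D2:**
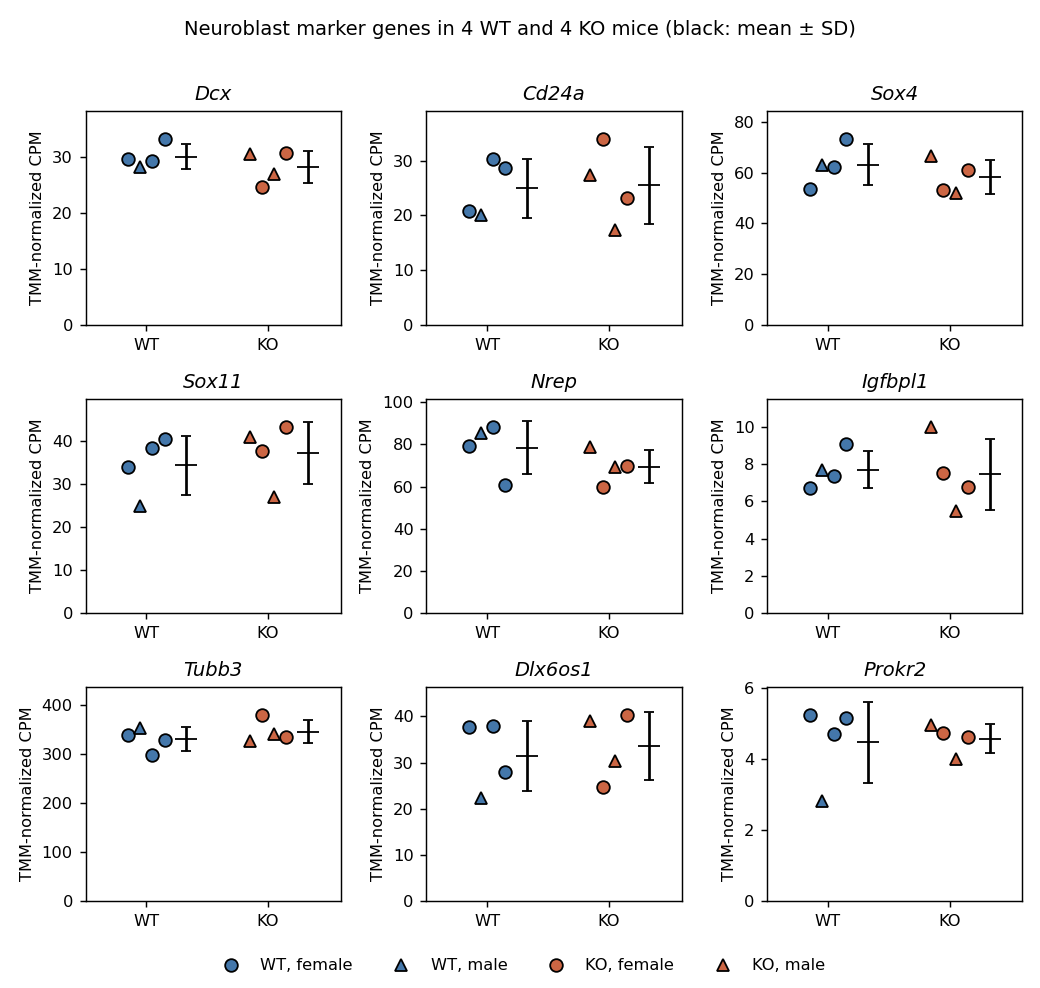
TMM-normalized CPM of each marker gene in 4 WT mice (blue) and 4 KO mice (orange), females as circles and males as triangles, with mean ± SD in black beside each group and axes that start at 0. The KO points lie within or across the range of the WT points in every panel, and *Cd24a* and *Dlx6os1* show the widest spread between mice.

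The first group of markers belongs to the cytoskeleton and growth cone of the migrating neuron. *Dcx* encodes doublecortin, a microtubule-binding protein needed for neuronal migration. It had 29.5, 28.1, 29.2 and 33.2 CPM in WT 1 to WT 4 and 30.5, 24.6, 27.0 and 30.6 CPM in KO 1 to KO 4. The highest mouse was WT 4 and the lowest KO 2, and the groups overlapped. The means were 30.0 ± 2.21 CPM in WT and 28.2 ± 2.91 CPM in KO, a log2 fold change of -0.09 (SE 0.094, unadjusted p = 0.353), with a 95% interval of the fold from 0.810 to 1.09.

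*Tubb3* encodes neuronal class III β-tubulin, a building block of microtubules in young and mature neurons. It had 340, 355, 298 and 330 CPM in WT and 328, 381, 342 and 336 CPM in the KO mice, with WT 3 lowest and KO 2 highest. Its means were 331 ± 24.2 CPM in WT and 347 ± 23.5 CPM in KO, and the log2 fold change was 0.07 (SE 0.085, unadjusted p = 0.446), with a fold interval from 0.917 to 1.20. *Nrep*, also called P311, encodes a small intracellular protein found in growing and regenerating neurons. It had 79.2, 85.5, 88.3 and 60.8 CPM in WT and 78.9, 59.8, 69.1 and 69.8 CPM in KO. WT 1 to WT 3 stood above all KO mice, and WT 4 lay near the lowest KO mouse. The log2 fold change of -0.18 (SE 0.13, unadjusted p = 0.204) was the most negative of the 9, with a fold interval from 0.722 to 1.08. WT 4 was the only WT mouse that overlapped the KO group for *Nrep*, so leaving it out set the groups apart by that choice. The gap left was between WT 1 (79.2 CPM) and KO 1 (78.9 CPM), and no change is read from it. The log2 fold change of *Nrep* was then -0.28, with an unadjusted p of 0.0223 in edgeR and an adjusted p still above 0.1. That unadjusted p is the lowest of any marker over the 18 fits made. In that fit 418 of 17955 genes reached an unadjusted p under 0.05. The share of all genes whose groups do not overlap was not computed without WT 4.

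The second group is of the cell surface and the space outside the cell. *Cd24a* encodes a glycoprotein anchored in the outer membrane that is used with other antigens to sort neuroblasts. It had 20.8, 20.0, 30.3 and 28.6 CPM in WT and 27.5, 34.0, 17.3 and 23.2 CPM in KO, so the KO group held both the highest mouse (KO 2) and the lowest (KO 3). The means were 24.9 ± 5.30 CPM and 25.5 ± 7.03 CPM, a log2 fold change of 0.03 (SE 0.22, unadjusted p = 0.886) with a fold interval from 0.725 to 1.44.

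*Prokr2* encodes the receptor for prokineticin 2, a secreted protein that draws neuroblasts towards the olfactory bulb. It had 5.25, 2.81, 4.71 and 5.16 CPM in WT and 4.98, 4.74, 4.004 and 4.62 CPM in KO, and WT 2 stood lowest. The KO mice were closer together (SD 0.416 CPM) than the WT mice (SD 1.14 CPM). The log2 fold change was 0.03 (SE 0.20, unadjusted p = 0.873), with a fold interval from 0.749 to 1.40. The ligand gene *Prok2* did not pass 2.47 CPM in any mouse and the other receptor gene, *Prokr1*, did not pass 0.36 CPM. These 2 genes were chosen here with their values in view. *Igfbpl1* encodes a secreted protein related to the proteins that bind insulin-like growth factors. It had 6.69, 7.68, 7.35 and 9.07 CPM in WT and 9.999, 7.52, 5.46 and 6.79 CPM in KO. The KO mice again spanned the WT range, from KO 3 to KO 1, and the log2 fold change was -0.05 (SE 0.19, unadjusted p = 0.796), with a fold interval from 0.720 to 1.30.

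The third group regulates transcription. *Sox4* and *Sox11* encode closely related HMG-box factors of the SoxC family that switch on neuronal genes in newly formed neurons. *Sox4* had 53.6, 63.0, 62.3 and 73.4 CPM in WT and 66.7, 53.3, 52.1 and 61.1 CPM in KO. WT 4 was highest and KO 3 lowest, and the log2 fold change was -0.11 (SE 0.11, unadjusted p = 0.348), with a fold interval from 0.772 to 1.11. *Sox11* had 34.0, 25.0, 38.4 and 40.4 CPM in WT and 41.1, 37.8, 27.1 and 43.4 CPM in KO. The lowest mouse of each genotype was WT 2 and KO 3, and the groups overlapped. The log2 fold change was 0.12 (SE 0.18, unadjusted p = 0.541), the highest of the 9, with a fold interval from 0.813 to 1.44.

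*Dlx6os1*, also called *Evf2*, is a long non-coding RNA of the *Dlx5* and *Dlx6* locus, where the homeodomain factors of GABAergic neurons are encoded. It had 37.7, 22.3, 37.8 and 27.9 CPM in WT and 39.0, 24.8, 30.3 and 40.4 CPM in KO. Low and high mice occurred in both genotypes, and the log2 fold change was 0.10 (SE 0.21, unadjusted p = 0.653), with a fold interval from 0.770 to 1.49. *Dlx6* lies within the span of *Dlx6os1* on the opposite strand and shares 0 exonic bases with it, whereas 54.6% of the exonic bases of *Sox4* lie opposite a long non-coding RNA gene, *Gm26735*, that is not a separate line of the count table. Whether the counting used strand is not given in the sources used here, so reads of *Sox4* and of this partner cannot be told apart.

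**Figure D3:**
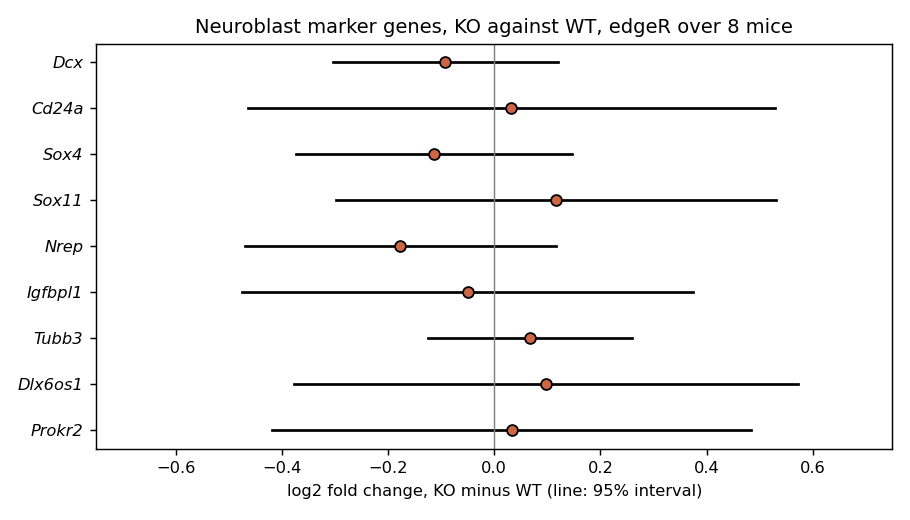
Log2 fold change (KO minus WT) of each marker gene from edgeR over 8 mice, with points for the estimate and lines for the 95% interval. All 9 intervals cross 0, and the points lie between -0.18 (*Nrep*) and 0.12 (*Sox11*).

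Promoter windows, 250 bases before to 50 bases after a transcription start, were at hand from RefSeq (GRCm38.p6) for 6 of the 9 markers, as 8 windows, and none for *Cd24a*, *Nrep* and *Igfbpl1*. They were read for the letters TAATTA, which homeodomain proteins such as those of the Dlx family can bind, and for ACAAAG or its reverse complement CTTTGT, which Sox proteins can bind, on both strands. The letters TAATTA occurred in 4 windows of 2 markers, *Dcx* and *Dlx6os1*, and in 5.29% of all 32851 windows. The 2 windows of *Dcx* overlap and hold the same match, so they count 1 site. ACAAAG occurred in 2 windows of the same 2 markers and in 18.7% of all windows. A window of each of these 2 genes that holds both motifs is printed 5′ to 3′ on the strand of the gene, with the motifs in capitals. A match of letters is a description of the sequence and not a measurement of binding.
*Dcx*, minus strand, chrX:143933075-143933374: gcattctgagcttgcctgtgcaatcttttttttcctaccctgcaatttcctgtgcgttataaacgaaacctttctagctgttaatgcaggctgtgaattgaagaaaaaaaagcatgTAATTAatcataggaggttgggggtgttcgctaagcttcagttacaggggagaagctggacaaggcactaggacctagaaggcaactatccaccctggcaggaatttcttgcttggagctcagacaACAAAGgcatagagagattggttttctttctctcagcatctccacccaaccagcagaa
*Dlx6os1*, minus strand, chr6:6869484-6869783: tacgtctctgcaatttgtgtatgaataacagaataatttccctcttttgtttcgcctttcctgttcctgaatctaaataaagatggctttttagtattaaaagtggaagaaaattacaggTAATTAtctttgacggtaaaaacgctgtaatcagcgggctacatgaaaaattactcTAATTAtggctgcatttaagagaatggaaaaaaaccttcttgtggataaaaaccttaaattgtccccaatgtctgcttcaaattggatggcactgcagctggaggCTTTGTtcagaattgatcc

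The transcripts behind each gene were compared next, since a gene can keep its total while its transcripts shift. *Sox4* and *Sox11* had 1 transcript each, *Tubb3*-201 held nearly the whole level of *Tubb3*, *Cd24a*-201 held 97.5% of the TPM of *Cd24a*, and *Dcx*-201 held 79.9% of the TPM of *Dcx*. The other 4 genes had a second transcript of at least 10% of the level, and the share of the leading transcript was tested in them. For *Igfbpl1*-201 the share was 92.1% ± 3.33 in WT and 87.5% ± 4.53 in KO, and the leading transcript of *Nrep* held 74.6% ± 4.27 in WT and 76.7% ± 2.26 in KO. *Dlx6os1*-201 held 48.1% ± 6.48 and 53.1% ± 4.15, and *Prokr2*-201 held 38.6% ± 17.96 and 49.1% ± 14.9. In exact two-sided permutation tests of 4 against 4 mice the smallest p of the 4 genes was 0.143 (*Igfbpl1*) and all 4 adjusted p were 0.514, where the design allows no p below 0.0286. A minor transcript, *Dcx*-204, was chosen here with its values in view. It had 0.897, 0.754, 0.511 and 0.451 TPM in WT 1 to WT 4 and 0.438, 0, 0.337 and 0.0896 TPM in KO 1 to KO 4. The groups did not overlap, but WT 4 and KO 1 nearly met. The share of all transcripts whose groups do not overlap was not computed, so no change is read from these values. *Dcx*-204 held 8.35% of the TPM of *Dcx* and 1.19% of its estimated reads, of which *Dcx*-201 held 93.6%. No test was made of *Dcx*-204.

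Other genes of the lineage also did not pass the test. None of 10 lineage factors passed it, 6 above 0 and 4 below, with a median log2 fold change of 0.05. Among them *Meis2*, a homeodomain factor of olfactory bulb interneurons, had 333 ± 92.0 CPM in WT and 329 ± 49.0 in KO. *Meis2* was lowest in WT 2 (208 CPM), the mouse also lowest in the summed CPM of 8 striatal medium spiny neuron genes (2774). Which cells its reads came from was not tested. None of 12 cytoskeletal genes of young neurons passed it (median -0.02), with *Map1b*, a microtubule-associated protein, at 838 ± 190 CPM in WT and 794 ± 74.2 in KO. Among 10 surface and signalling partners the count was also 0 (median 0.16), with *Gad1*, which makes GABA, at 622 ± 124 CPM in WT and 670 ± 55.8 in KO.

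Of 12 progenitor and cell cycle genes, which mark the cells that come before neuroblasts, 11 had a log2 fold change below 0, with a median of -0.09, and none of the 12 passed the test at an adjusted p under 0.1 or an unadjusted p under 0.05. *Egfr*, expressed by activated stem cells and transit-amplifying progenitors, had 22.5 ± 1.91 CPM in WT and 20.1 ± 1.43 in KO (log2 fold change -0.16, SE 0.089, adjusted p = 1.0 in edgeR). *Top2a*, a topoisomerase of dividing cells, had 14.7 ± 1.82 CPM in WT and 13.02 ± 3.34 in KO. The neuroblast markers had 4 of 9 below 0, and the difference between the lists was not tested.

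Markers of other cell types of the dissected tissue were read beside these values. The median log2 fold change was -0.10 over 8 genes of mature neurons, -0.09 over 8 of striatal medium spiny neurons and -0.81 over 8 of cortical excitatory neurons, each with 8 of 8 below 0 and 0 past the test. The summed CPM of the cortical genes ranged from 734 to 3521 in WT and from 486 to 1726 in KO. Ependymal (0.09), choroid plexus (-0.16, 5 of 6 genes tested), oligodendrocyte (-0.07), astrocyte (0.01), microglial (-0.17) and endothelial (0.01) lists likewise had 0 genes past the test. *Csf1r*, the receptor that microglia need to survive, was the one gene of all these lists with an unadjusted p under 0.05 in edgeR (log2 fold change -0.35, SE 0.14, unadjusted p = 0.0351, adjusted p = 1.0). Without WT 2 and KO 3, the mice highest in cortical genes, 0 of 9 markers passed the test. Their log2 fold changes were then -0.13 for *Nrep*, -0.10 for *Dcx*, -0.075 for *Prokr2*, -0.063 for *Sox4*, 0.011 for *Dlx6os1*, 0.073 for *Igfbpl1*, 0.088 for *Cd24a*, 0.11 for *Tubb3* and 0.12 for *Sox11*.

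**Figure D4:**
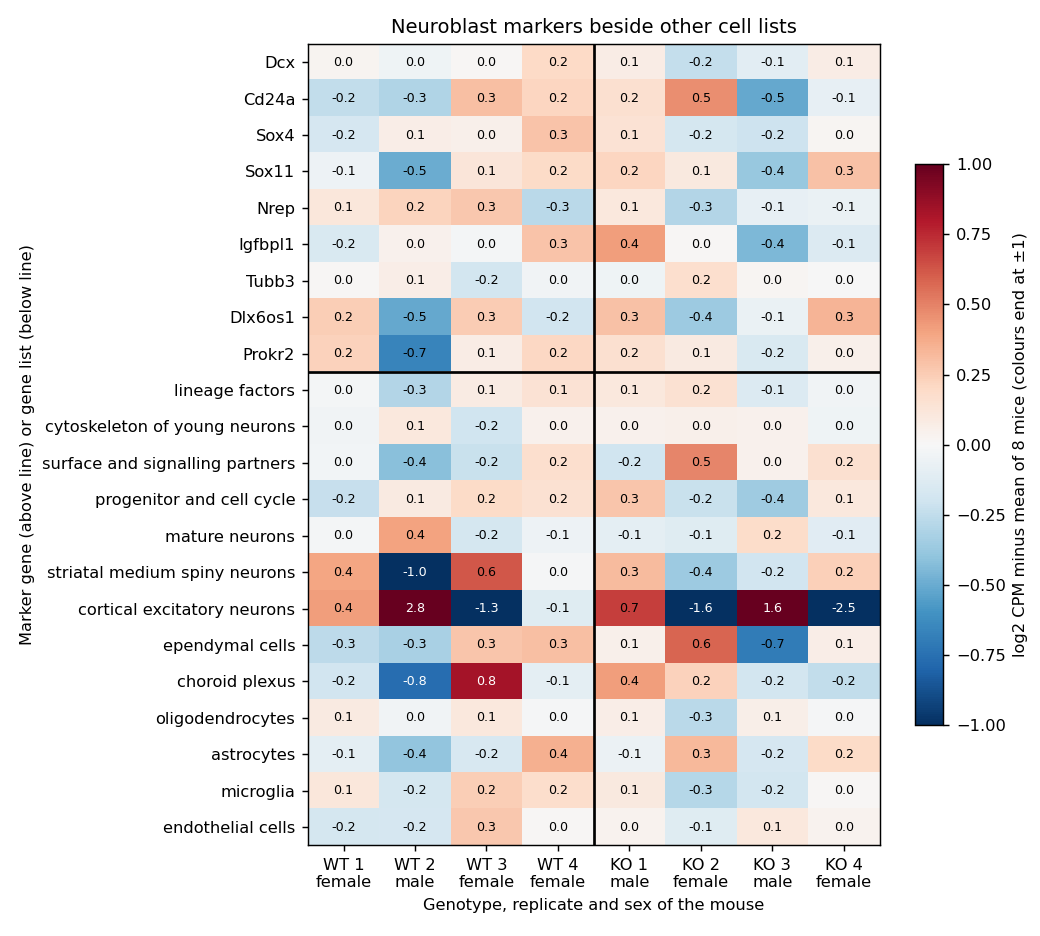
Log2 CPM of each marker gene (top 9 lines) and mean log2 CPM of each cell list (lower lines) in 8 mice, each relative to the mean of the 8 mice, with colours that end at ±1 and the value printed in each cell. The cortical line ranges from -2.45 in KO 4 to 2.76 in WT 2, whereas the marker gene that departs most is *Prokr2*, at -0.66 in WT 2.

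Sex was the other labelled difference between the mice, and 0 of 9 markers passed an adjusted p under 0.1 between males and females in the fit with genotype and sex, beside 3.72% of the genes tested. *Sox11* alone reached an unadjusted p under 0.05, as did 15.9% of the genes tested. It had 38.8 ± 3.45 CPM in 5 females and 31.1 ± 8.73 CPM in 3 males, a log2 fold change of -0.39 (SE 0.15, adjusted p = 0.267 in edgeR). The males differed among themselves, with 25.0 CPM in WT 2, 27.1 CPM in KO 3 and 41.1 CPM in KO 1. WT 2 and KO 3 were also the mice highest in cortical and mature neuron genes, and without them the log2 fold change of *Sox11* was 0.0069. Without KO 1 it was -0.59, with an adjusted p of 0.0267 in edgeR. In that fit 1462 of 17970 genes passed an adjusted p under 0.1, and the only males were WT 2 and KO 3. *Cd24a* and *Prokr2* each had a log2 fold change of -0.38 between males and females and passed neither threshold. The part of sex and that of the neuron content of these 2 libraries cannot be told apart. In females alone, 3 WT against 2 KO, the log2 fold changes of the markers between KO and WT lay between -0.23 (*Nrep*) and 0.16 (*Tubb3*), with 0 of 9 past the test.

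The markers differed in how steady they were between animals. The coefficient of variation of CPM over the 8 mice was 6.98% for *Tubb3* and 8.90% for *Dcx*, between 12.2% (*Sox4*) and 18.7% (*Igfbpl1*) for *Nrep*, *Prokr2*, *Sox11* and these 2 genes, and 21.7% for *Dlx6os1* and 22.9% for *Cd24a*. WT 2 was the lowest mouse for *Sox11*, *Dlx6os1* and *Prokr2*, and KO 3 was the lowest for *Cd24a*, *Sox4* and *Igfbpl1*. No mouse was lowest or highest in all markers. Over the 36 pairs of markers, Pearson's r across the 8 mice was above 0 in 23, with a median of 0.092. It was above 0.7 in 4 pairs, from 0.71 (*Cd24a* and *Sox11*) through 0.79 (*Sox4* with *Igfbpl1* and with *Dcx*) to 0.81 (*Sox11* and *Prokr2*), and the lowest value was -0.65 (*Tubb3* and *Dlx6os1*). These r are a description without a test, and all pairs share the same libraries.

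Of the relations between mice, 10 were tested with exact permutation tests and Benjamini-Hochberg adjustment. *Cd24a* followed the mean log2 CPM of 8 ependymal genes (r = 0.97, exact permutation p = 0.000124, adjusted p = 0.00124, and Spearman's rho = 0.95, exact permutation p = 0.00114, adjusted p = 0.0114). KO 2 was highest and KO 3 lowest in both. The r was 0.94 without these 2 mice, which lay farthest from the median of *Cd24a*. It was 0.94 without WT 2 and KO 3, and 0.97 with each genotype centred at its own mean. *Foxj1*, the master factor of motile cilia, is one of the ependymal genes and had 13.3 ± 2.41 CPM in WT and 14.4 ± 4.04 in KO.

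*Dcx* and *Sox4* had r = 0.79 (exact permutation p = 0.0186, adjusted p = 0.0929) and rho = 0.69 (exact permutation p = 0.0694, adjusted p = 0.208). The r was 0.58 (exact permutation p = 0.232) without WT 4 and KO 2, the mice farthest from the median of *Dcx*. It was 0.80 without WT 2 and KO 3, and 0.76 with each genotype centred at its own mean. Whether the relation depends on WT 4 and KO 2 cannot be settled with the 6 mice left. *Dcx* had r = 0.0092 with *Cd24a*, 0.12 with *Nrep*, 0.33 with *Prokr2*, 0.44 with *Sox11* (0.89 without WT 4 and KO 2, exact permutation p = 0.0222), 0.45 with *Dlx6os1*, 0.47 with *Igfbpl1* and -0.62 with *Tubb3*, none of which passed the adjusted threshold over 8 mice. *Tubb3* had r = 0.35 with the list of mature neurons (exact permutation p = 0.350, adjusted p = 0.481), and 0.90 without WT 3 and KO 2. Without WT 2 and KO 3 instead, this r was 0.29, and that of *Dcx* with *Sox11* was 0.37. Relations within one sex were not computed, since no correlation was read over fewer than 6 mice.

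All 9 markers were then set against all 13 other lists, a step added after seeing the data, which gave 117 relations. Of these, 5 passed an adjusted p under 0.1 for Pearson's r in exact permutation tests, 2 positive and 3 negative, and 0 of them passed for both r and rho. Beside *Cd24a* and the ependymal list, *Dlx6os1* went with the striatal list (r = 0.91, adjusted p = 0.0472 in the exact permutation test, rho = 0.76, and r = 0.76 without WT 2 and KO 2). *Nrep* went against the surface and signalling partners (r = -0.90, adjusted p = 0.0472 in the exact permutation test, rho = -0.93, and r = -0.85 without WT 4 and KO 2). *Tubb3* went against the microglial list (r = -0.87, adjusted p = 0.0472 in the exact permutation test, rho = -0.86, and r = -0.78 without WT 3 and KO 2). *Sox11* went against the mature neuron list over 8 mice (r = -0.92, adjusted p = 0.0963 in the exact permutation test, rho = -0.64). It was low in WT 2 and KO 3, where mature neuron genes were high. Over the other 6 mice r was -0.38 (exact permutation p = 0.469). Whether the relation depends on WT 2 and KO 3 cannot be settled with the 6 mice left. All values are shares of the same library, so lists and markers are not independent of each other.

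**Figure D5:**
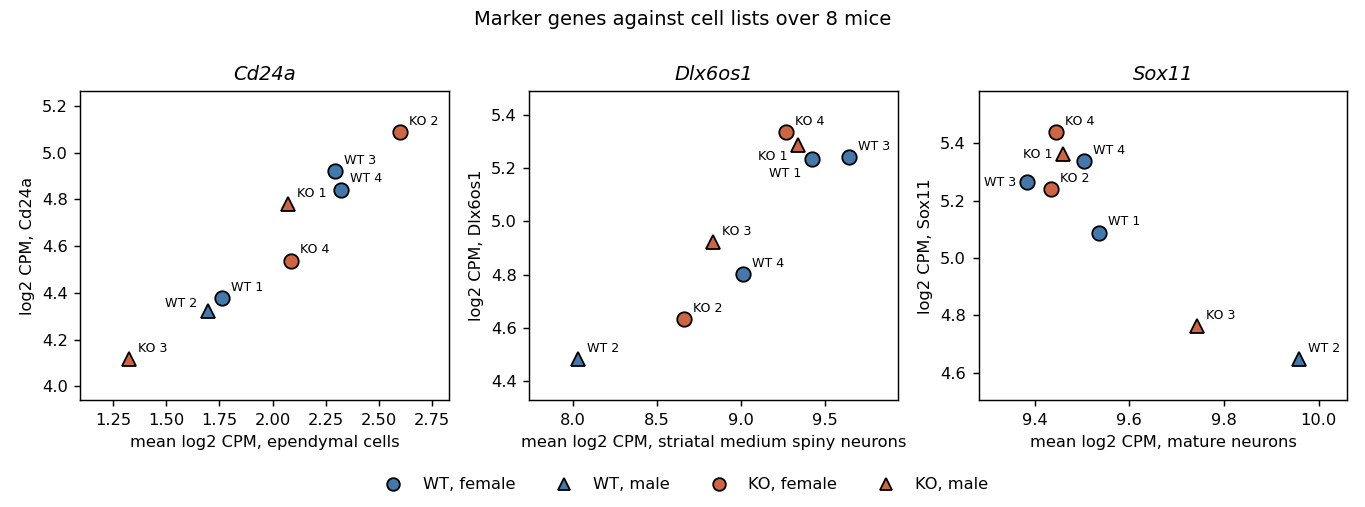
Log2 CPM of *Cd24a*, *Dlx6os1* and *Sox11* against the mean log2 CPM of the ependymal, striatal and mature neuron lists in 8 mice, with WT in blue, KO in orange, females as circles and males as triangles. The points of *Cd24a* follow a line over the whole range, those of *Dlx6os1* rise from WT 2 upwards, and in the panel of *Sox11* WT 2 and KO 3 lie apart from the other 6 mice.

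The genes most like *Dcx* in their pattern over the 8 mice were sought among 14418 genes with a mean of at least 1 CPM. The 5 highest r were those of *S1pr5*, a receptor for sphingosine-1-phosphate (0.97), *Prr18* (0.96), *Dvl2*, a signalling protein of the Wnt pathway (0.96), *Unc5b*, a netrin receptor (0.95), and *Bmp2k*, a kinase (0.93). Each was lowest in KO 2 and highest in WT 4, as *Dcx* was. *S1pr5* ranged from 16.2 CPM in KO 2 to 25.8 CPM in WT 4. The 9 markers were left out of this search, and these r are the highest of 14418 values and were not tested.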

How the data were processed

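The authors sequenced polyA-selected libraries, made FASTQ files with bcl2fastq 2.20 and estimated reads with Salmon against Gencode M29, and their methods name DESeq2 for testing. They deposited an unnormalized estimated count per gene and, for each mouse, the estimated count and TPM of each transcript with its length. How transcripts were summed to genes and whether strand was used are not given in the sources used here. A total of 94.8% of 54307 gene identifiers had a symbol, and 0 columns were left over. The reference at hand was GRCm38, older than the authors' build, and was used for names, transcript sums and overlaps between genes. Promoter windows came from a RefSeq table of GRCm38.p6.

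Estimated counts were rounded to whole numbers and KO was compared with WT with the quasi-likelihood test of edgeR 4.0.16 (R 4.3.3) after filterByExpr and scaling by TMM, with p adjusted by Benjamini-Hochberg over 17669 genes at a threshold of 0.1. The study used the same threshold for these data. Log2 CPM used a prior count of 2, and 95% intervals used the t quantile of the fit. Levels between genes were compared in TPM. Permutation tests used scipy 1.17.1. Library totals were 47887437 to 74482334, and counting error was not separated from the spread between mice.

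The alternatives were DESeq2 1.42.0 and its size factors, no filter, a minimum of 10 counts in every mouse, sex or the replicate number as a term, females alone, and each mouse left out in turn. Leaving out the 2 mice highest in cortical genes, Spearman's rho and the 117 relations were added after seeing the data. On simulated counts for KO against WT of 17669 genes with 200 changed by 2 on the log2 scale, edgeR found 171 with 17 other calls and DESeq2 found 176 with 78. With no gene changed the calls were 0 and 31. Recovery of log2 fold changes as small as those of the markers (-0.18 for *Nrep* to 0.12 for *Sox11*) was not tested.

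The markers were listed by name, without a rule on values, but the markers and the other lists were chosen with earlier results of these data known. The genes named in the text are the 9 markers, *Lrig1*, list genes with an unadjusted p under 0.05, and otherwise up to 3 of the most abundant genes of a list. The 5 genes closest to *Dcx* by Pearson's r, with the markers left out, are also named. *Prok2*, *Prokr1* and the transcript *Dcx*-204 lie outside this rule, and neighbours of a marker are named for their position alone. Immunostaining and western blots were not analysed here.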

Additional observations from a re-analysis of the deposited data

Results flagged for a closer look

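None of the 9 markers held a mouse that lay apart from its group by Dixon's test, which sets the distance of the highest or lowest mouse from its neighbour against the whole range of that group. Over 50 groups (markers, *Lrig1*, lists and library totals in each genotype) 4 passed the 95% critical value, or 8.0%, where chance gives about 1 in 20. The summed CPM of the surface and signalling partners was 1208 in WT 2 against 1705 in the nearest WT mouse. That of the cortical excitatory neuron genes was 3521 in WT 2 against 1086. The mature neuron genes summed to 8119 CPM in KO 3 against 6669 in the nearest KO mouse. The endothelial genes summed to 118 CPM in KO 2 against 133.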

How the results depend on the processing

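Over 18 fits of KO against WT, the 17 alternatives included, 0 of 9 markers were called in each, the lowest adjusted p of a marker was 0.794, and log2 fold changes of markers lay between -0.28 and 0.24. *Dcx*, *Sox4*, *Nrep* and *Tubb3* kept their sign in all of them, with ranges of -0.13 to -0.033, -0.18 to -0.032, -0.28 to -0.11 and 0.020 to 0.10 with 1 mouse left out. The sign turned without WT 2 and KO 3 for *Igfbpl1* (0.073) and *Prokr2* (-0.075), and in females alone for *Dlx6os1* (-0.077) and *Prokr2* (-0.10), where the median of the markers was also -0.10. With 1 mouse left out, *Cd24a* ranged from -0.14 to 0.18, *Sox11* from -0.011 to 0.24, *Igfbpl1* from -0.22 to 0.074, *Dlx6os1* from -0.038 to 0.22, *Prokr2* from -0.14 to 0.12 and the median of the markers from -0.061 to 0.074. The count of markers whose groups did not overlap was 0 to 1 (1 without WT 4, the mouse that overlapped for *Nrep*). The share of all genes was not computed with 1 mouse left out. The difference in the leading transcript share of *Nrep* was then -0.019 to 3.19 percentage points.

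The table as a whole gave 1 call, against 12 in DESeq2, 201 in DESeq2 with sex, 2 with no filter, 0 with a minimum of 10 counts, 2 with sex, 3 in females alone, 0 without WT 2 and KO 3, and 0 to 3 with 1 mouse left out. The replicate block gave 0 calls and 0 markers. Deviations of same-numbered WT and KO mice correlated at -0.225 to 0.267 and 1 of 4 WT mice went best with its own number, so the numbers were not taken as pairs. *Lrig1* (adjusted p = 0.286 in edgeR) passed the threshold in DESeq2 (-3.80), DESeq2 with sex (-3.47), no filter (-3.80), sex (-3.47) and females alone (-3.503), and in edgeR without WT 2 (-4.06, adjusted p = 0.0623). It did not pass without any other single mouse, without both WT 2 and KO 3, with the replicate block, the minimum of 10 counts or the size factors of DESeq2, and its log2 fold change was -4.19 to -3.56 with 1 mouse left out.

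Between males and females the table gave 657 calls, 1538 in DESeq2, 1360 with no filter, 10 without WT 2 and KO 3 and 10 to 1462 with 1 mouse left out (10 without WT 2, 1462 without KO 1), and the markers 0 to 1 (*Sox11* without KO 1). Without WT 2 and KO 3 the sign turned for *Dcx* (0.13), *Sox11* (0.0069), *Tubb3* (-0.14), *Dlx6os1* (0.25) and *Prokr2* (0.080), and it turned for *Tubb3* in DESeq2 (-0.00087) and with its size factors (-8.73e-05). With 1 mouse left out, *Dcx* ranged from -0.11 to 0.044, *Sox4* from -0.065 to 0.10, *Igfbpl1* from -0.18 to 0.23, *Tubb3* from -0.11 to 0.068 and *Dlx6os1* from -0.44 to 0.076. Of the 10 relations, 2 passed, 1 with centred genotypes or Spearman's rho, and 3 without the 2 mice farthest from the median. Why these values moved was not tested. With 4 mice a group, the intervals given for each marker are not limits of detection. *Lrig1*, with a log2 fold change of -3.80, did not pass the threshold in the main fit (adjusted p = 0.286 in edgeR). Changes in a marker that lie beyond its interval could therefore also go uncalled. The smallest change that would be called was not tested.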
